A study of Rattus norvegicus with 2 samples.

Results

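The Hox genes are the 39 genes whose symbols join Hox with a cluster letter and a number, out of 25399 genes listed for the sympathetic neurons of the stellate ganglion. They were selected by symbol alone, without regard to their measured values, and all 39 have a line in both libraries. The stellate ganglion, which supplies the heart with sympathetic fibres, was dissociated and sequenced cell by cell with 10x Genomics 3′ chemistry giving 1 library of Wistar rats, the normotensive strain, and 1 of prehypertensive SHRs (spontaneously hypertensive rats). The animals were males of 5 to 6 weeks, an age before hypertension is established in SHRs, and how many animals went into each library is not given in the sources used here. The values of a gene are its averages over the sympathetic neuron cluster, 1 for each strain. Neither strain has a replicate library, so no difference between the strains has a test, and strain, animal and preparation cannot be told apart.

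Hox genes encode homeodomain transcription factors that give cells their position along the head to tail axis. In mammals they lie in 4 clusters, A to D, and genes at the same place in different clusters share a paralogue number, with low numbers expressed from more anterior levels of the embryo and high numbers only in the trunk, lower back and tail. Neurons of the sympathetic chain come from trunk neural crest, keep a Hox code into adult life, and in the stellate ganglion belong to the junction of neck and chest. Hox proteins bind DNA together with partners of the Pbx, Meis and Pknox families, and their clusters are held silent by Polycomb proteins and kept active by trithorax proteins.

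The values were converted to mean counts per 10000 counts of a neuron. Each count is a 3′ tag, 1 for a transcript molecule, so these means are compared between genes without a correction for length. Values that are exactly the same in several genes gave the size of a single count in a single neuron, and from these sizes the means were those of 315 neurons in Wistar and 110 neurons in SHR. The sizes found belong to 197 and 105 of these neurons, whose total counts ranged from 4093 to 227128 (median 98002) in Wistar and from 4882 to 232544 (median 104775) in SHR. At the median size, 1 count was worth 0.000324 per 10000 in Wistar and 0.000868 in SHR. The sizes ranged from 0.000140 to 0.00776 in Wistar and from 0.000391 to 0.0186 in SHR. Where a mean is given below as worth a number of counts, it was divided by the median size. The counts behind a low mean can thus be far fewer or more. A gene listed at 0 thus had no count in 315 or in 110 neurons, which allows a share of neurons with a count of up to 0.952% in Wistar and 2.73% in SHR, and these limits cover counting error only. The markers of the label were present, with Th at 10.2 per 10000 in Wistar neurons and 10.1 in SHR neurons, Dbh at 10.2 and 6.36, and Slc6a2 at 15.9 and 15.2. The 9 listed neuron markers summed to 57.1 in Wistar and 48.5 in SHR, with 7 lower and 2 higher in SHR.

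Markers of other cells were also in these means, and they differed between the libraries. The 8 glial markers summed to 8.38 per 10000 in Wistar and 2.84 in SHR, the 6 fibroblast markers to 1.84 and 0.353, and the 6 immune markers to 1.15 and 0.374, with no member of the 3 lists at 0 in either library. The 5 endothelial markers with a line summed to 0.0788 and 0.0774, and the 6 smooth muscle markers to 0.120 and 0.0714, with 1 of the latter at 0 in SHR. Hox genes can be expressed by glia and fibroblasts of the same body level, and the part of such cells in the Hox values below was not tested.

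The highest listed Hox means were those of Hoxc4, Hoxd3, Hoxd4 and Hoxc8. The 250 bases before the annotated start of the first 3 are shown because these genes carry the results that follow, and no promoter is printed for Hoxc8. They are RefSeq sequences of the GRCr8 rat assembly, 5′ to 3′ on the plus strand, whereas the deposited values rest on the older Rnor_6.0. Capitals mark matches, read on either strand (AGGTCA reads TGACCT on the other), to AGGTCA, a half-site of nuclear receptors such as the retinoic acid receptors, or to CCAAT, the CCAAT box, and no 2 matches overlap. Hoxc4 lies at chr7:136048809-136049058, Hoxd3 at chr3:80045876-80046125 and Hoxd4 at chr3:80021636-80021885.
Hoxc4: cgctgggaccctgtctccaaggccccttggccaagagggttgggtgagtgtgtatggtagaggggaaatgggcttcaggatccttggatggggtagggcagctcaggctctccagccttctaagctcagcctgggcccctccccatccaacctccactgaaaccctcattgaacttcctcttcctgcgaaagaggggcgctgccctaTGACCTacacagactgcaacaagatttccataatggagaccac
Hoxd3: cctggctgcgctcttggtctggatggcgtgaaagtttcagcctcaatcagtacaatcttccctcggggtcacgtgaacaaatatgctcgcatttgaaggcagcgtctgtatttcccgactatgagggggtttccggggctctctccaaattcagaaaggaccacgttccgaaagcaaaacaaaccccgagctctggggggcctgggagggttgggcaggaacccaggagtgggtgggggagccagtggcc
Hoxd4: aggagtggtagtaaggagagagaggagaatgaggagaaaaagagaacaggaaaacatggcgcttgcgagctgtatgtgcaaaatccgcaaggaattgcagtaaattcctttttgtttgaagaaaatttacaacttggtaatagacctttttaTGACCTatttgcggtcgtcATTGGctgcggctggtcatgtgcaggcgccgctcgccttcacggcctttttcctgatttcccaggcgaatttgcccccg

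The AGGTCA letters stood once in the Hoxc4 window and once in the Hoxd4 window, and not in that of Hoxd3. They were found in 14.1% of the 33469 promoters of the table and in 3 of the 21 Hox promoters it holds. The CCAAT letters stood once, upstream of Hoxd4, against 34.0% of all promoters and 12 of the 21 Hox promoters. TGATNNAT, a site bound by Hox and Pbx proteins together, was in none of the 3 windows, in 7.96% of all promoters and in 3 of the 21 Hox promoters. The windows held 3 CG pairs for Hoxc4, 11 for Hoxd3 and 12 for Hoxd4, where the median was 20 over the Hox promoters and 5 over all promoters. A match of letters is a description of the sequence and not a binding site.

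Hoxc4 made up most of the summed Hox means listed for the stellate neurons. The Wistar mean of 1.82 per 10000 and the SHR mean of 1.61 are 73.8% of the summed Hox means in Wistar and 84.2% in SHR. In these sums the A cluster genes enter at a 0 that cannot be read as absence, as described below. How reads were shared among Hoxc4, Hoxc5 and Hoxc6 is also uncertain. Hoxc4 ranked 880 among all genes in Wistar and 994 in SHR. At the median size of a count these means are worth 5615 counts in Wistar and 1861 in SHR. The level of Hoxc4 lay above that of Hand2, a regulator of noradrenergic neurons listed at 0.250 per 10000 in Wistar neurons and 0.452 in SHR neurons, and below that of Phox2a, another such regulator, at 6.03 and 7.82.

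**Figure D1:**
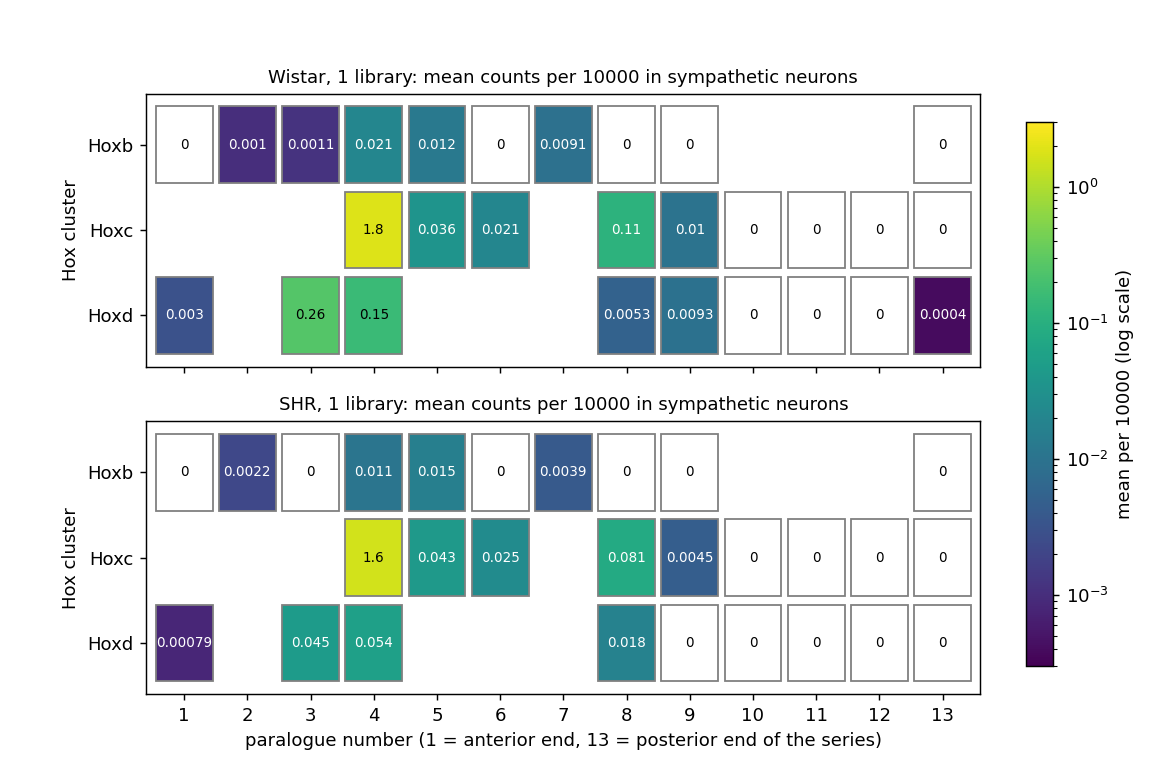
Mean counts per 10000 of the Hox genes of the B, C and D clusters in the sympathetic neurons of the Wistar library (top) and the SHR library (bottom), by cluster (rows) and paralogue number (columns), with colour on a log scale, white cells for genes listed at 0 and no box where the rat has no gene. Hoxc4 is the highest cell in both libraries, the A cluster, at 0 throughout, is not drawn, and 1 gene of paralogues 10 to 13 is above 0, in Wistar.

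The C cluster held 5 genes above 0 in each library, those of paralogues 4, 5, 6, 8 and 9. Hoxc8, which marks thoracic levels, came next to Hoxc4, at 0.110 per 10000 in Wistar and 0.0812 in SHR. Hoxc5 was listed at 0.0356 and 0.0426 and Hoxc6 at 0.0209 and 0.0245. Levels therefore did not fall evenly with the paralogue number, since Hoxc8 stood above both genes between it and Hoxc4 in each library. Hoxc9, the most posterior gene of the cluster above 0, was listed at 0.00999 in Wistar and 0.00454 in SHR. Hoxc10, Hoxc11, Hoxc12 and Hoxc13 were listed at 0 in both libraries. In the RefSeq annotation of GRCr8 the span of Hoxc6 overlaps those of Hoxc5 and Hoxc4, so how reads were shared among these 3 genes is uncertain.

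The D cluster came second, with 6 genes above 0 in Wistar and 4 in SHR. Hoxd3 averaged 0.256 per 10000 in the Wistar neurons and 0.0455 in those of SHR. Its neighbour Hoxd4 averaged 0.152 and 0.0536, so the order of these 2 genes was opposite in the 2 libraries. Hoxd8 was listed at 0.00532 in Wistar and 0.0175 in SHR, and Hoxd9 at 0.00931 in Wistar and 0 in SHR. Hoxd1, the most anterior gene of this cluster, was listed at 0.00304 in Wistar and 0.000793 in SHR. The SHR value of Hoxd1 equals the size of 1 count in 1 neuron of 114701 counts. Hoxd13, the most posterior gene of the cluster, was listed at 0.000398 in Wistar, which equals 1 count in 1 neuron of 79711 counts, and at 0 in SHR. Hoxd10, Hoxd11 and Hoxd12 were listed at 0 in both libraries.

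The B cluster was low throughout, with sums of 0.0442 per 10000 in Wistar and 0.0322 in SHR. The highest gene was Hoxb4 in Wistar, at 0.0205 against 0.0106 in SHR, and Hoxb5 in SHR, at 0.0155 against 0.0124 in Wistar. Hoxb7 was listed at 0.00907 and 0.00392. Hoxb2 was listed at 0.00102 and 0.00221, near the worth of 3 counts in either library, and Hoxb3 at 0.00114 in Wistar and 0 in SHR. Hoxb1, Hoxb6, Hoxb8, Hoxb9 and Hoxb13 were listed at 0 in both, so that Hoxb6 was at 0 between a pair of neighbours above 0.

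The 11 genes of the A cluster were all listed at 0 in both libraries. Their symbols fill 16 lines of the deposited tables, in a first run of 8 lines and a separate second run of 8 lines, and 4 symbols, Hoxa4 and Hoxa11 among them, stand on more than 1 line. All 16 lines were at 0. The 252 other lines whose symbols are repeated in this way were at 0 in both libraries in 54.8% of cases, against 35.5% of all lines. Reads that fit several copies of a gene equally well are not counted by Cell Ranger in its usual setting, so the zeros of the A cluster cannot be read as absence of these transcripts, and the part of the repeated lines in them was not tested. The line LOC100911668, whose number is the RefSeq gene ID of Hoxa10, was at 0 as well, as were both lines with former names of the antisense transcript Hoxa11-as.

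Read by paralogue number, the listed Hox means of the B, C and D clusters centred on group 4, with the A cluster entering at its unresolved 0. Group 4, with the B, C and D members above 0 and Hoxa4 at 0, held 80.8% of the summed Hox means in Wistar and 87.6% in SHR. Group 3 held 10.4% and 2.37%, almost all of it Hoxd3. Group 8 held 4.69% and 5.15%, most of it Hoxc8. Groups 5, 6, 7 and 9 held between 0.204% and 3.03% each, and groups 1 and 2 held at most 0.123%. Of the 12 genes of paralogues 10 to 13, Hoxd13 in Wistar was the only one above 0, with its single count. Weighted by level, the mean paralogue number was 4.17 in Wistar and 4.25 in SHR. Without Hoxc4 it was 4.64 in Wistar and 5.60 in SHR, and with equal weight for every gene above 0 the order of the libraries was opposite, at 5.69 in Wistar and 5.08 in SHR.

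**Figure D2:**
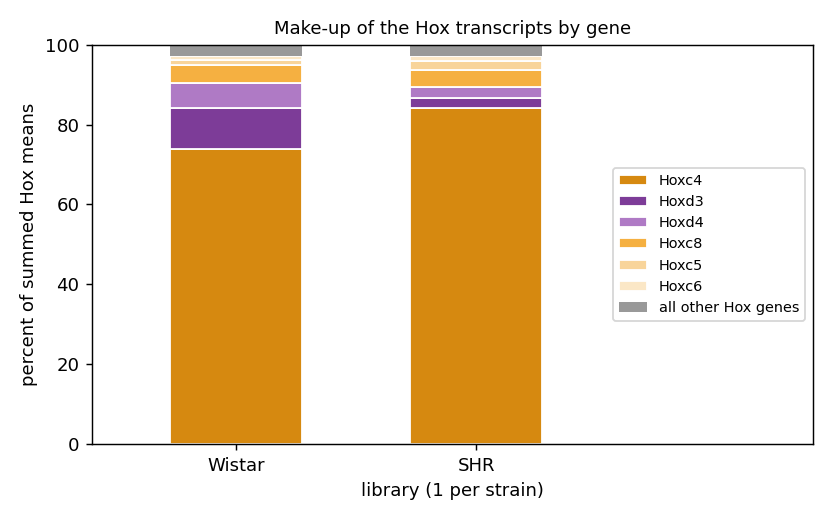
Share of the summed Hox means (percent, y axis) taken by each of the 6 highest genes and by all other Hox genes in the Wistar and the SHR library. Hoxc4 takes 73.8% in Wistar and 84.2% in SHR, and Hoxd3 and Hoxd4 take 10.4% and 6.16% in Wistar against 2.37% and 2.80% in SHR.

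Between the strains, the 39 means summed to 2.47 per 10000 in Wistar and 1.92 in SHR, a ratio of 0.778. Most of this difference lay in the D cluster. The D cluster summed to 0.426 per 10000 in Wistar and 0.117 in SHR, 3.63-fold lower in SHR, where the C cluster without Hoxc4 was 1.16-fold lower (0.177 and 0.153) and the B cluster 1.37-fold lower. Hoxd3 was 5.63-fold lower in SHR and Hoxd4 2.83-fold lower. At the median size of a count, the means of Hoxd3 are worth 790 counts in Wistar and 52.4 in SHR, and those of Hoxd4 468.9 and 61.8. Hoxc4 was 1.13-fold lower in SHR, a log2 ratio of -0.17, which became 0.041 when the median of all genes past the minimum was set to 0.

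A minimum of 0.1 per 10000, averaged over both libraries, was passed by Hoxc4, Hoxd3 and Hoxd4 among the 39 genes, with Hoxd4 just inside it (average 0.103) and Hoxc8 just outside (average 0.0958). Hoxd3 and Hoxd4 passed only through their Wistar means, since their SHR means of 0.0455 and 0.0536 lay below 0.1. The count and the median of the 3 genes therefore lean to lower SHR values. Hoxd3 and Hoxd4 were lower in SHR by at least 1.5-fold, and 26.5% of the 7621 genes past the minimum were lower to that extent. None of the 3 was higher by at least 1.5-fold, against 5.22% of all genes. The median log2 ratio of SHR to Wistar was -1.50 over the 3 genes and -0.21 over all 7621. With a minimum of 0.01, 9 Hox genes passed, of which 3 (Hoxd3, Hoxd4 and Hoxb4) were lower by 1.5-fold, against 34.2% of 11604 genes, and 1 (Hoxd8) was higher, against 6.97%. The median log2 ratio of these 9 was -0.17 and that of all 11604 genes was -0.29. The share of Hox genes lower by at least 1.5-fold in SHR at this minimum, 3 of 9, was thus near that of all genes. Lower by any amount were 5 of the 9, against 68.3% of all genes.

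**Figure D3:**
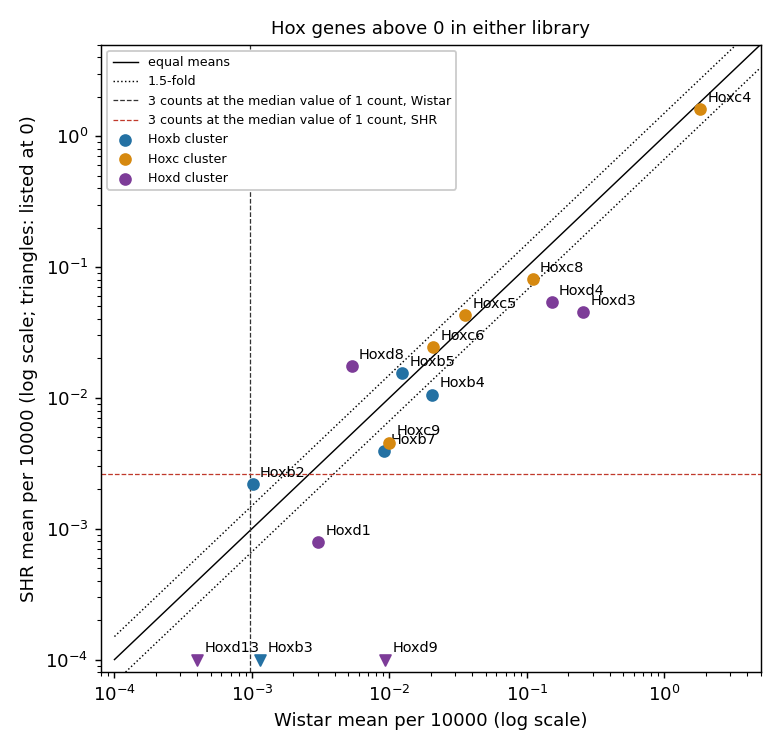
SHR mean against Wistar mean per 10000 (both axes log scale) of the 16 Hox genes above 0 in either library, coloured by cluster, with triangles on the lower edge for genes listed at 0 in SHR, a solid line for equal means, dotted lines for 1.5-fold and dashed lines for the level of 3 counts in each library. Hoxd3 and Hoxd4 lie below the dotted lines, at means worth more than 50 counts of median size in both libraries. Hoxd8 and the sparse Hoxb2 lie above the dotted lines, and Hoxb4, Hoxc9, Hoxb7 and Hoxd1 also lie below.

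Some Hox genes had higher means in SHR. Hoxc5, Hoxc6 and Hoxb5 had log2 ratios of SHR to Wistar of 0.26, 0.23 and 0.32, with means worth 49.1, 28.3 and 17.8 counts in SHR. Hoxd8 was 3.30-fold higher, on means worth 16.4 counts in Wistar and 20.2 in SHR at the median size of a count. The largest size of 1 count found in SHR, 0.0186 per 10000, exceeds the SHR mean of Hoxd8 (0.0175). The true number of counts behind these low means is therefore not known. Hoxd3 and Hoxd8 lie in the same cluster and thus differed in opposite directions. The 3 genes above 0 in Wistar alone were Hoxd9, Hoxb3 and Hoxd13, and no Hox gene was above 0 in SHR alone. Of the 39 Hox genes, 23 were at 0 in Wistar, 26 in SHR and 23 in both. Of all 25395 genes, 9395 were at 0 in Wistar, 10750 in SHR and 9006 in both, so zeros were more frequent in SHR there as well. Among the 3 Hox genes above 0 in Wistar alone, Hoxd9 was the most abundant, worth 28.8 counts at the median size. Its Wistar mean of 0.00931 lies above the 0.00260 per 10000 that 3 counts of median size are worth in SHR. Single counts were worth up to 0.00776 in Wistar, so this mean may rest on few counts in few neurons. Whether the 0 of Hoxd9 in SHR differs from its Wistar mean was not tested. The Wistar means of Hoxb3 and Hoxd13 lie below 0.00260, so that an equal mean in SHR could have been missed at this depth.

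The marker sums of glia, fibroblasts, immune cells and smooth muscle were also lower in SHR, as given above. The endothelial sums were near equal, at 0.0788 and 0.0774, and the endothelial gene Tek was 2.53-fold higher in SHR. Of the fibroblast markers, the collagen gene Col1a1 was 8.41-fold lower in SHR, Col3a1 5.36-fold lower and the proteoglycan gene Dcn 4.01-fold lower. The glial genes S100b and Sox10 were 5.70-fold and 5.40-fold lower. Of the Hox genes, Hoxd8 was higher in SHR and Hoxc4 was 1.13-fold lower. Averages over neurons cannot show whether Hoxd3 and Hoxd4 counts came from few neurons or from many, and the part of other cells in their difference was not tested.

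The DNA-binding partners of Hox proteins were present in the same neuron cluster averages at levels like that of Hoxc4 or lower. Averages cannot show whether partner and Hox counts came from the same cells. Of 9 listed partner genes, 4 passed the minimum of 0.1 per 10000, namely Meis1 at 1.63 in Wistar and 1.09 in SHR, Meis3 at 0.575 and 0.414, Pbx2 at 0.436 and 0.381, and Pknox1 at 0.282 and 0.163. All 4 means were lower in the SHR library, the median log2 ratio being -0.53 against -0.21 over all genes, and 1 of them, Pknox1, was lower by 1.5-fold. Over all genes past the minimum, 65.6% had lower SHR means and 26.5% were lower by 1.5-fold. Meis1, at 1.499-fold lower, fell just short of the cut, so the count of 1 of 4 depends on where the cut lies. Pbx3 was below the minimum, at 0.0401 and 0.0249, and Meis2 was listed at 0 in both libraries. Meis1 and Meis3 thus had the highest means of the partner genes, in the same order in both libraries.

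Chromatin regulators of the Hox clusters were expressed, with 13 of 22 listed genes past the minimum. The highest were Ash1l, a trithorax group histone methyltransferase, at 1.45 per 10000 in Wistar and 0.936 in SHR, the Polycomb gene Phc2 at 0.812 and 0.767, Men1 at 0.652 and 0.421, and Ezh1, an enzyme that writes the Polycomb mark, at 0.646 and 0.586. Ezh1 stood above Ezh2, its counterpart in dividing cells, which was listed at 0.0550 and 0.00735. Of the 13 genes, 12 had lower means in SHR, against 65.6% of all genes past the minimum. Of the 13, 6 were lower by 1.5-fold, against 26.5% of all genes, and the median log2 ratio was -0.55, against -0.21. The 6 were Ash1l, Men1, Kmt2a, Phc1, Cbx7 and Kdm6b. Kdm6b, a demethylase that removes the Polycomb mark, was 3.44-fold lower (0.162 and 0.0472) and passed the minimum only through its Wistar mean. Cbx7 was 2.21-fold lower. Suz12 was the gene with no lower mean, at 0.282 and 0.285. The shares over all genes are those given for the partner genes.

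Retinoic acid sets the anterior borders of Hox genes in the embryo, and its receptors were present here at low levels. Of 14 listed genes of its synthesis, breakdown and binding, 2 passed the minimum. They were the receptor gene Rxrb, with means of 0.657 (Wistar) and 0.409 (SHR) per 10000, and Aldh1a1, at 0.137 and 0.105. The median log2 ratio of these 2 genes was -0.53, against -0.21 over all genes past the minimum. Rarb was listed at 0.0803 and 0.0918, Rara at 0.0733 and 0.0501, and Aldh1a2, the main enzyme of retinoic acid synthesis in the embryo, at 0 in both libraries. The 8 relatives of the Hox genes listed for comparison, Cdx1, Cdx2, Cdx4, Gsx1, Gsx2, Pdx1, Evx1 and Evx2, were at 0 in both libraries.

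**Figure D4:**
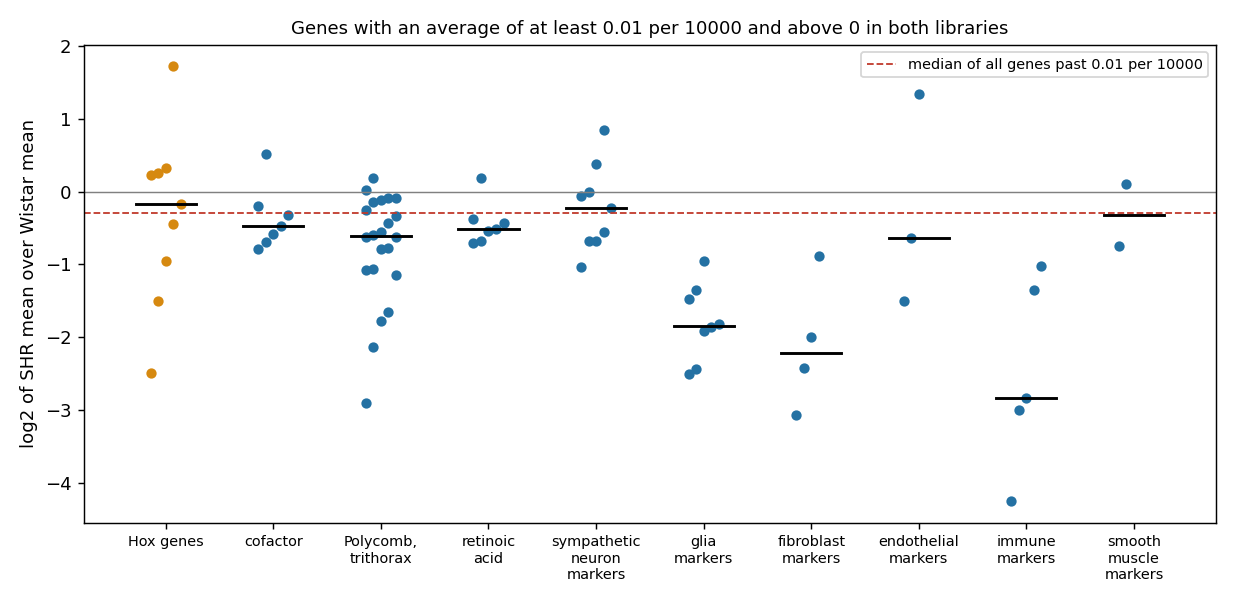
Log2 of the SHR mean over the Wistar mean (y axis) for Hox genes and for listed partner, chromatin, retinoic acid and marker genes with an average of at least 0.01 per 10000 and a mean above 0 in both libraries, with a bar at each median and a dashed line at the median of all such genes (-0.29). The 9 Hox genes spread from -2.49 (Hoxd3) to 1.72 (Hoxd8) around a median of -0.17, and the glial, fibroblast and immune markers lie lower.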

How the data were processed

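Stellate ganglion cells of 1 Wistar and 1 SHR library were processed, per the submitters' notes, with Cell Ranger 3.0.2 and Seurat 3 on Rnor_6.0, and the authors selected the sympathetic neurons. Filters on cells and the treatment of doublets are not given in the sources used here, and doublets cannot be looked for in means. The deposited numbers are on a natural log scale, ln(1 + mean per 10000 counts), with 9 decimals, and converted means sum to 10000 in each library. A table of the authors' own comparison of the strains (fold changes, shares and p-values, 5 columns) was not used. Lines with a repeated full name were left out of counts over all genes, leaving 25395.

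Means, ratios and sums were computed with Python 3.11.15, NumPy 2.4.6 and pandas 2.3.3. The size of a count was read from values shared by at least 3 genes, without multiples and sums of smaller ones, and the number of neurons is the largest up to 1999 for which at least 95% of the neuron totals came out whole, within rounding, among those precise enough to tell (51 of 51 in Wistar, 79 of 80 in SHR). This step was checked on simulated cells of known number. The rule names all Hox genes and, of other lists the members averaging at least 0.1 per 10000 or the highest 3. A few genes are not reported here; Ezh2, Rara, Aldh1a2, Pbx3, Meis2 and single markers were named after their values were seen. The members and lists were chosen with earlier results of these data known. Alternatives were other scalings, minimums, pseudocounts, weights and a fold of 2.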

Additional observations from a re-analysis of the deposited data

How the results depend on the processing

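No paired analysis was possible because neither strain has a second library. The 3 alternatives on the worth of 3 counts and on how many genes share a value were added after the data were seen. The numbers of neurons, 315 and 110, were the same with values shared by at least 2 or at least 5 genes. With a level of at least 0.01 per 10000, 8 Hox genes were listed in Wistar and 9 in SHR, the opposite order to the 16 and 13 above 0, and with at least 0.1, 4 in Wistar and 1 in SHR. The ratio of the summed means was 0.800 when ribosomal protein and mitochondrial genes were taken out of the totals, 0.901 with the median of all genes set to 0, and 0.468 without Hoxc4. The mean paralogue number was 4.25 in Wistar and 4.37 in SHR with log weights, 5.69 and 5.08 with equal weights, and 4.64 and 5.60 without Hoxc4. The Hox median log2 ratio was -1.46 without mitochondrial and ribosomal protein genes, -1.29 centred on all genes, -0.17 at a minimum of 0.01, -0.44 with no minimum, and -0.13 and -0.71 with pseudocounts of 1 and 0.1. Without a minimum 6 of 13 Hox genes were lower and 2 higher by 1.5-fold, against 35.8% and 11.6% of 14256 genes, at 0.01 the number higher was 1 of 9 against 6.97%, and with a pseudocount of 1 the number lower was 0, since a pseudocount shrinks ratios of low means. In the order no mitochondrial and ribosomal genes, centred, pseudocount of 1 and minimum of 0.01, the list medians were -0.49, -0.32, -0.15 and -0.47 for Hox partners, -0.51, -0.34, -0.090 and -0.62 for Polycomb and trithorax genes, and -0.49, -0.32, -0.14 and -0.51 for retinoic acid genes. The list medians stayed below 0 and the ratio of the sums below 1 under these alternatives. Set against the median of all genes, the Hox median lay above it at a minimum of 0.01 (-0.17 and -0.29). It lay below the median of all genes in the other settings, as in the main one (-1.50 and -0.21). The strain with the higher mean paralogue number changed with equal weights. The sign of Hoxc4 changed when centred, alone among the 9 Hox genes averaging at least 0.01. Depth limits the SHR values most, where 3 counts of median size are worth 0.00260 per 10000.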

Other observations

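The genes that flank the Hox clusters were chosen after the values were seen. They are the nearest genes past each end of a cluster with means above 0.1 per 10000 in both libraries. Their presence in both libraries was thus fixed by the choice, and any nearer gene below that level was passed over. A gene with an SHR mean below 0.1, like those of Hoxd3 and Hoxd4, could not be chosen. The ratios of the flanking genes therefore cannot be set against those of these Hox genes. Beside the A cluster, Skap2, an adaptor protein gene, had means of 0.163 (Wistar) and 0.146 (SHR) per 10000, and Hibadh, an enzyme of valine breakdown, at 0.384 and 0.508. Beside the D cluster, Lnpk, a gene of endoplasmic reticulum junctions, was at 0.435 and 0.416 and Mtx2, a mitochondrial membrane gene, at 1.24 and 1.25. Beside the C cluster, Atp5mc2, a subunit of the ATP synthase, was at 2.75 and 4.61 and Smug1, a DNA repair gene, at 0.264 and 0.205. Beside the B cluster, Atp5mc1 was at 4.47 and 5.66 and Snx11 at 0.281 and 0.259.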
